A study of Mus musculus with 2 samples.

Results

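The miR-10 and miR-196 genes are microRNA (miRNA) genes embedded in the 4 mammalian Hox clusters. They were taken here as the entries of the count tables whose gene identifiers are Mir10a, Mir10b, Mir196a-1, Mir196a-2 and Mir196b in the GENCODE M21 annotation of the mouse genome (build mm10). All 5 genes were found among 2202 annotated miRNA genes. The study held 1 group of 2 libraries, made by miRNA sequencing of total RNA from left cerebral cortex. The animals were B6CASTF1/J males at the age of 4 days, and no treatment is named. RNA under 30 nt was selected. Such mice are first-generation hybrids between the C57BL/6J and CAST/EiJ strains. The libraries are labelled biological replicates 2 and 1 and are called here the replicate 2 library and the replicate 1 library. Their labels number the males differently but carry the same donor identifier, so the labels do not settle whether the spread between the libraries is a spread between animals.

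Hox genes encode transcription factors that give cells their position along the body axis. They lie in clusters whose order along the chromosome matches their order along the body, with low-numbered genes at the 3′ end active towards the hindbrain and high-numbered genes at the 5′ end active towards the tail. The forebrain, from which the cortex forms, lies in front of the domain of Hox expression in the embryo. A miRNA is cut from a hairpin precursor and pairs with messenger RNAs through its seed, the bases just after its 5′ end, to lower their translation or stability. The miR-10 genes sit beside the Hox4 genes and are active from the hindbrain and neck backwards. The miR-196 genes sit between Hox9 and Hox10 or in the matching interval, are active further back in the trunk and in the hindlimb, and target Hox8 genes, among them Hoxb8.

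The mature 5′ arms show how the genes fall into 2 families. The sequences below are RefSeq entries on GRCm38.p6, written 5′ to 3′ with the seed (bases 2 to 8) in capitals, and all 5 genes matched an entry.
miR-10a-5p (Mir10a): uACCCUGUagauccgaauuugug
miR-10b-5p (Mir10b): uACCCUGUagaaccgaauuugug
miR-196a-5p (Mir196a-1 and Mir196a-2): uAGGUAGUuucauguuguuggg
miR-196b-5p (Mir196b): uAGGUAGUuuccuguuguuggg
miR-100-5p (Mir100, a relative outside the Hox clusters): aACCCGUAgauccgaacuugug
Within each family the seed was the same. Counting from 1 at the 5′ end, miR-10b-5p differs from miR-10a-5p by U12A, and miR-196b-5p differs from miR-196a-5p by A12C, both outside the seed. Among the 1679 mature names of the RefSeq table, the seed of the miR-10 pair occurred in 2 names and the seed of the miR-196 genes in 2 names, which are those printed here. The seed of miR-100-5p is different, although its sequence shares a run of 11 bases with miR-10a-5p.

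Mir196a-1 and Mir196a-2 give the same mature 5′ arm, which limits what their counts hold. Their hairpins are printed here with the longest shared run in capitals.
Mir196a-1 hairpin: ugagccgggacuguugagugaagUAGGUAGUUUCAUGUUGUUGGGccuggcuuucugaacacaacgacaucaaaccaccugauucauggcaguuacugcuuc
Mir196a-2 hairpin: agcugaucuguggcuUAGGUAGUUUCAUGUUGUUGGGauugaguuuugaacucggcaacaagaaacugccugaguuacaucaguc
The shared run is 22 bases long and is the whole of miR-196a-5p. A read of exactly this arm has at least 2 matching sites, and these tables count reads placed at several sites apart from the genes. The counts of these 2 genes are therefore uncertain and can lack such reads. For the other 3 genes the longest run shared with any other annotated miRNA gene was shorter than a mature arm, at 15 bases between Mir10a and Mir10b and 12 for Mir196b.

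Each Hox cluster holds at least 1 of these genes (see the map of the clusters). Mir196b, of the Hoxa cluster, lies on chromosome 6 from 52230081 to 52230165 on the minus strand, between the coding parts of Hoxa9 and Hoxa10. It lies in an exon of 2 and an intron of 1 of the 3 Hoxa9 transcripts that overlap it, and in no coding sequence. The Hoxb cluster on chromosome 11 holds Mir196a-1 (96265164 to 96265265), between Hoxb9 and Hoxb13, and Mir10a (96317165 to 96317274), between Hoxb4 and Hoxb5, neither of them inside another annotated gene. Mir196a-2, of the Hoxc cluster, lies on chromosome 15 from 102973350 to 102973434, between Hoxc9 and Hoxc10 and in an intron of 1 long Hoxc5 transcript. Mir10b, of the Hoxd cluster, lies on chromosome 2 from 74726070 to 74726137, between Hoxd4 and Hoxd8 and in introns of Hoxd3 and Hoxd4 transcripts. The 2 miR-10 genes lie 51.0 kb (Mir10a) and 39.0 kb (Mir10b) from the 3′ end of their clusters. The 3 miR-196 genes lie further from it, at 63.5 kb (Mir196a-2), 74.5 kb (Mir196b) and 103 kb (Mir196a-1). The clusters differ in length, from 96.8 kb (Hoxd) to 174 kb (Hoxb), so kb is not a common scale of position along the body. Only the Hoxb cluster holds genes of both families.

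**Figure D1:**
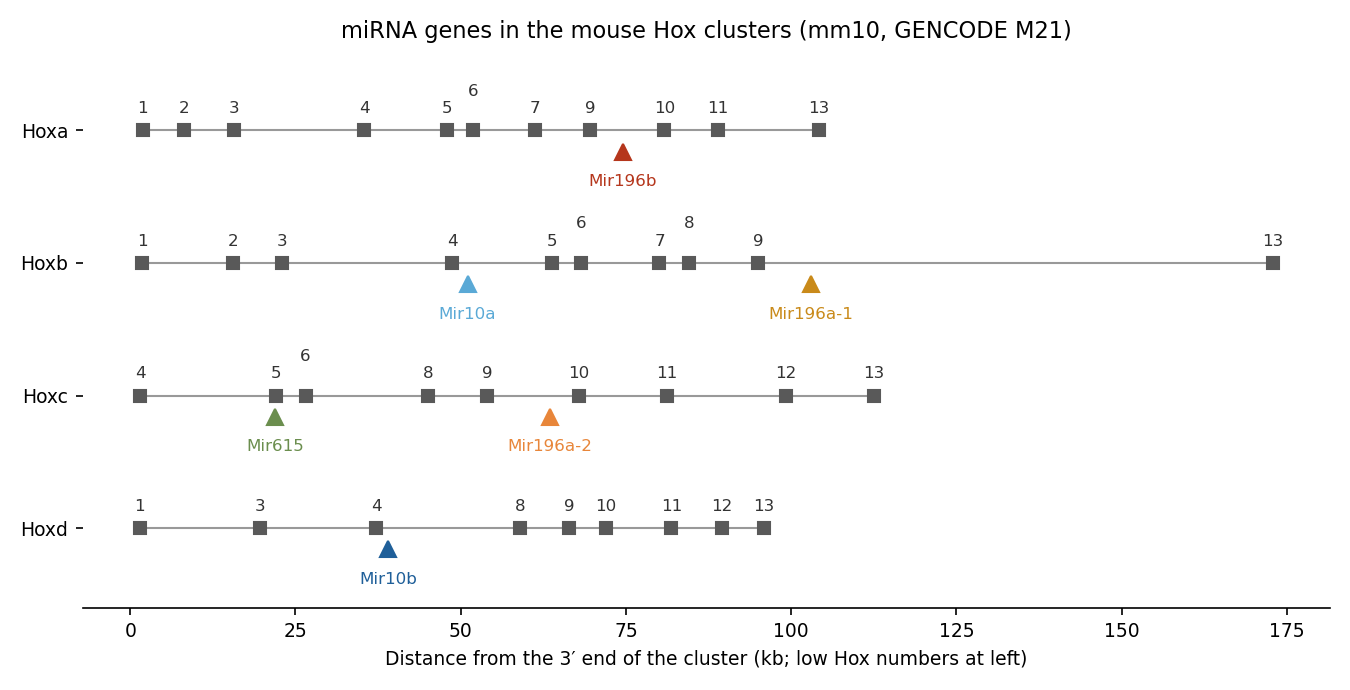
Position of miRNA genes (coloured triangles) and Hox coding sequences (grey squares, numbered) in the 4 Hox clusters, as distance in kb from the 3′ end of each cluster. The miR-10 genes lie at 39.0 and 51.0 kb, beside the Hox4 genes, and the miR-196 genes at 63.5 to 103 kb, on the 5′ side of the Hox9 genes.

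The libraries differed before any Hox gene was considered. Reads counted on the own strand of a miRNA gene numbered 3577964 of 6800067 reads in the replicate 2 library. In the replicate 1 library they numbered 2999032 of 10029659 reads. CPM is own-strand counts scaled to a library total of 1e6. A count of 0 was taken to allow up to 3 counts, or 0.838 CPM in the replicate 2 library and 1.00 CPM in the replicate 1 library. The markers named further on set the replicate 2 library apart: muscle miRNAs were 15.7% of its counts and neuron-enriched miRNAs 0.132%, against 0.00737% and 4.30% in the replicate 1 library. Mir206 alone gave 559242 of the 562170 muscle counts of the replicate 2 library, and the neuron-enriched list is not particular to cortex. The lists were chosen with earlier results of these data known. By these markers the replicate 2 library goes against its cortex label, and directions in the text hold between the libraries as they are labelled. Each value is given per library, so that either library can be read without the other.

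Hox cluster miRNAs were plentiful in the replicate 2 library and scarce in the other. The 5 genes together held 68383 counts, or 1.91% of the total (exact Clopper-Pearson 95% interval 1.90 to 1.93), in the replicate 2 library, and 685 counts, or 0.0228% (0.0212 to 0.0246), in the replicate 1 library. That is an 83.7-fold difference in share. The mean share was 0.967% ± 1.34 (SD, n = 2). In bulk tissue, fewer cells of a type and less RNA per cell cannot be told apart. Intervals cover counting error only, and PCR copies counted without molecular identifiers make even that error too small. Overlaps of intervals are given as a description, and an overlap does not show that values are equal.

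Mir10b, the Hoxd gene, had 17140 counts in the replicate 2 library and 576 in the replicate 1 library. Its level was 4790 CPM (interval 4719 to 4863) and 192 CPM (177 to 208), ranking 34 and 164 among all miRNA genes of each library. Mir10a, the Hoxb member of the family, had 5063 and 65 counts in the replicate 2 and replicate 1 libraries. Its level was 1415 CPM (1376 to 1455) in the replicate 2 library, where it ranked 71, and 21.7 CPM (16.7 to 27.6) in the replicate 1 library, where it ranked 285. Both miR-10 genes were thus present well above the limit of a count of 0 in each library, and Mir10b was the higher of the pair in each.

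Mir196b, the Hoxa gene, had 42961 counts in the replicate 2 library and 40 in the replicate 1 library. Its level was 12007 CPM (11894 to 12121) and 13.3 CPM (9.53 to 18.2), ranking 20 and 303. It was the most abundant of the 5 genes in the replicate 2 library and was below both miR-10 genes in the other. Mir196a-2, the Hoxc gene, had 3206 and 4 counts in the replicate 2 and replicate 1 libraries, or 896 CPM (865 to 928) and 1.33 CPM (0.363 to 3.41). Mir196a-1, the Hoxb gene, had 13 counts, or 3.63 CPM (1.93 to 6.21), in the replicate 2 library and 0 counts in the replicate 1 library. That 0 allows up to 1.00 CPM by the limit of 3 counts, and the exact interval reaches 1.23 CPM. The miR-196a genes were the lowest of the 5 in each library, on counts that can lack their shared arm.

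The mature arms are 22 or 23 nt long and a read covers an arm, so CPM was compared between genes without a length correction. The orders below are orders of counts. How evenly the libraries capture different miRNAs was not tested, and the miR-196a counts can lack reads placed at several sites. In the replicate 2 library the order of the levels was Mir196b, Mir10b, Mir10a, Mir196a-2 and Mir196a-1, and no neighbours in that order had overlapping intervals. In the replicate 1 library the order was Mir10b, Mir10a, Mir196b, Mir196a-2 and Mir196a-1. There the intervals of Mir10a and Mir196b overlapped, and the limit for Mir196a-1 lay inside the interval of Mir196a-2. Across the libraries the mean levels were 6010 ± 8481 CPM for Mir196b, 2491 ± 3252 for Mir10b, 718 ± 985 for Mir10a, 449 ± 633 for Mir196a-2 and 1.82 ± 2.57 for Mir196a-1 (SD, n = 2 each). Each SD exceeded its mean, and no neighbours in the order of the means differed beyond this spread. The SDs mostly hold the difference between the libraries and ignore that the genes were counted in the same libraries. Mir196b stood above both miR-10 genes in the replicate 2 library and below them in the replicate 1 library, where its interval overlapped that of Mir10a. Mir10b, Mir10a, Mir196a-2 and Mir196a-1 followed each other in that order in both libraries.

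**Figure D2:**
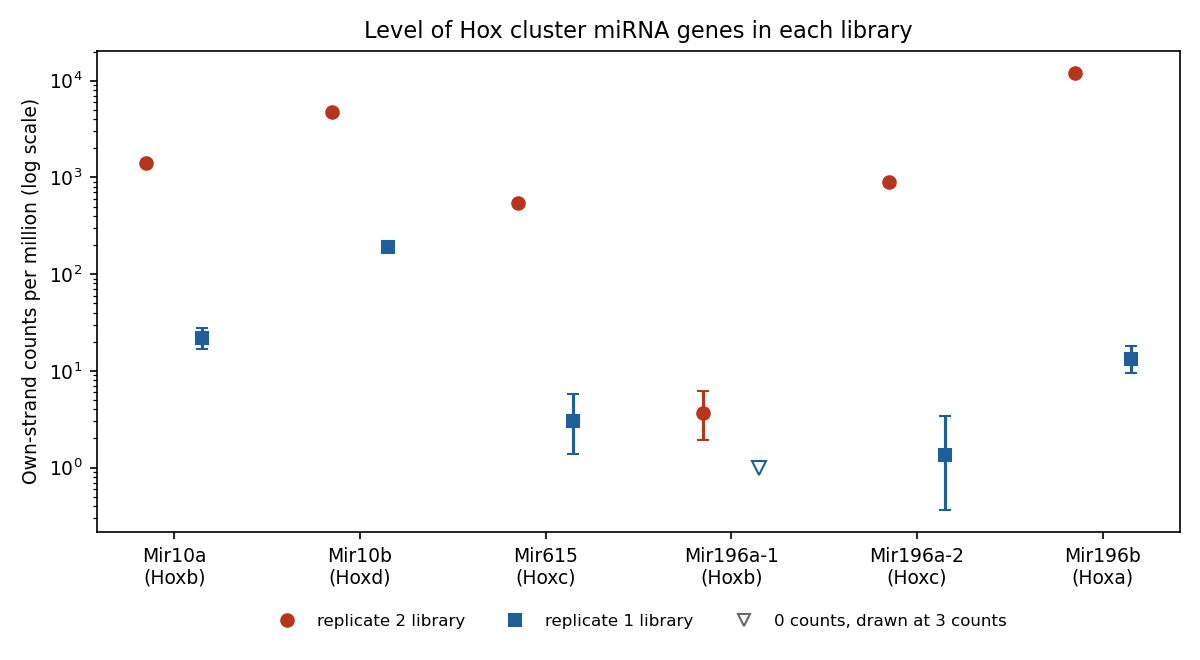
Own-strand CPM (log scale) of the 5 genes and of Mir615, the other counted Hox cluster miRNA, in the replicate 2 (circles) and replicate 1 (squares) libraries, with exact 95% counting intervals. Each gene is higher in the replicate 2 library, from 3.63 CPM for Mir196a-1 to 12007 CPM for Mir196b, and the open triangle stands for 0 counts drawn at the limit of 3 counts.

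All 5 genes passed as higher in the replicate 2 library by a two-sided exact binomial test of each gene (TMM scaling, which sets library sizes after trimming genes of extreme ratio; Benjamini-Hochberg over 463 genes with at least 10 counts summed, threshold 0.05), where 40.6% of all tested genes were called in that direction and 79.9% in either. With total counts in place of TMM, 5 of 5 passed again, beside 26.3% of all tested genes in that direction and 90.1% in either. The median log2 ratio of the 5 genes, replicate 2 over replicate 1 with a prior of 1 CPM, was 7.33, against -0.26 for all tested genes. With total counts these medians were 5.96 and -1.35, so the scaling moved the tested genes as a whole. The test sets 2 libraries against counting error alone and compares no conditions. The calls split into 188 higher and 182 lower with TMM, and into 122 and 295 with total counts.

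Mir196b had the largest ratio of the 5, with a log2 ratio of 11.05 with TMM (95% interval without the prior 10.77 to 11.70). With total counts it was 9.71 (9.37 to 10.30), and the plain ratio of CPM was 900.2-fold. It ranked 2 of the 463 genes with TMM. Mir196a-2 ranked 3 with a log2 ratio of 9.65 with TMM (9.44 to 12.67) and 8.59 with total counts (8.03 to 11.27), where the plain ratio of CPM was 672-fold. It rests on 4 counts in the replicate 1 library. The miR-10 genes followed, with TMM log2 ratios of 7.33 for Mir10a (7.08 to 7.81; rank 9) and 6.03 for Mir10b (5.92 to 6.17; rank 16). With total counts these were 5.96 for Mir10a (5.68 to 6.40) and 4.63 for Mir10b (4.52 to 4.76), and the plain ratios of CPM were 65.3-fold and 24.9-fold. For these 4 genes the adjusted p of the exact binomial test was below 2.2e-308, the smallest number the software holds. Mir196a-1 had a log2 ratio of 2.79 with TMM and the prior (rank 84, adjusted p = 4.1e-07, exact binomial test). With its count of 0 set to 3 counts its ratio of CPM was 3.63-fold before the counting error of its 13 counts, and the lower end of the exact 95% interval with total counts, without the prior, was log2 1.35. Mir196a-1 and Mir196a-2 reached the 10 counts only with those of the replicate 2 library, and Mir196a-1, at 0 in the other, could enter the test only by being higher there. Without Mir206, which alone took most of the muscle counts, the ratios were 11.06, 9.71, 7.34, 6.03 and 2.89 in the same order of genes.

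Counting error is the smallest error these libraries can have. The spread between samples cannot be estimated by setting these 2 libraries against each other, so the value used next was assumed and not measured. Mir196a-1 and Mir196a-2 again entered only with the counts of the replicate 2 library. When a coefficient of variation of 0.4 between samples was assumed, all 5 genes still passed by edgeR's exact negative binomial test, with adjusted p-values of 4.2e-16 for Mir196b, 6.9e-14 for Mir196a-2, 7.2e-10 for Mir10a, 9.0e-08 for Mir10b and 0.0057 for Mir196a-1. The count over all 463 genes was then 199, against 370 with the binomial test. The ratio intervals of Mir196b, Mir10a and Mir10b did not overlap each other, and those of Mir196b and Mir196a-2 did.

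**Figure D3:**
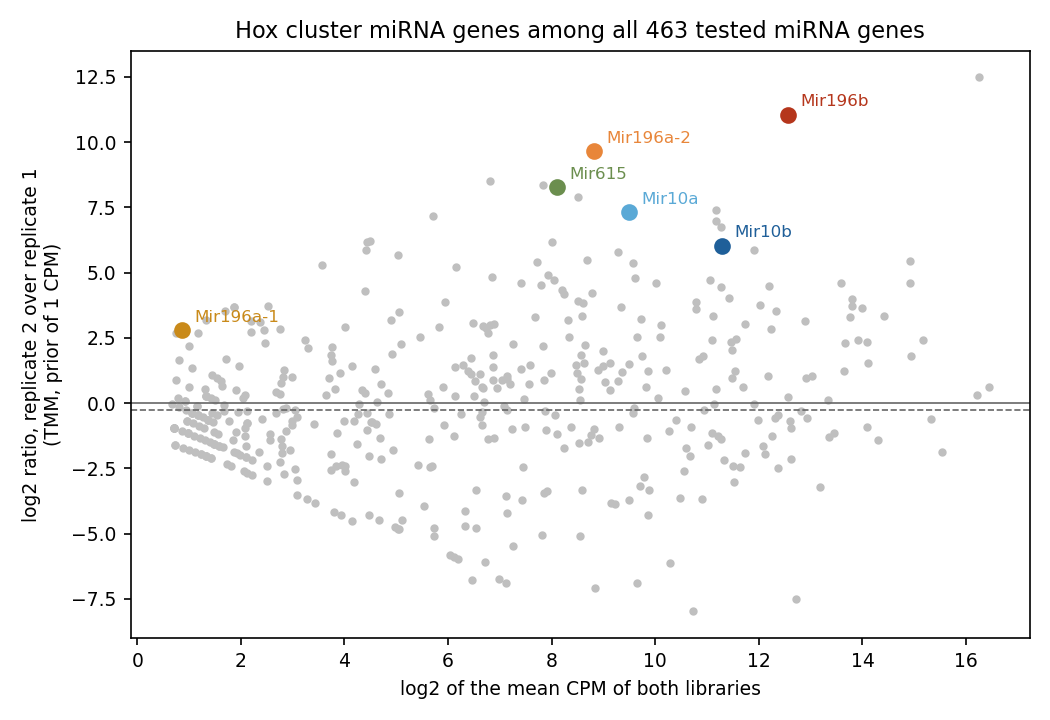
Log2 ratio of the libraries (replicate 2 over replicate 1, TMM, prior of 1 CPM) against log2 of the mean CPM for 463 tested miRNA genes (grey), with Hox cluster genes in colour. The dashed line is the median of all tested genes, -0.26, and the 5 miR-10 and miR-196 genes lie between 2.79 and 11.05.

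The make-up of the Hox cluster counts also differed, in a measure that needs no scaling between libraries. The 3 miR-196 genes, which lie further from the 3′ end of their clusters than the miR-10 genes, held 67.5% of the counts of the 5 genes (67.2 to 67.9) in the replicate 2 library. In the replicate 1 library they held 6.42% (4.71 to 8.53). The 2 miR-10 genes held the rest, 32.5% and 93.6%. These intervals are far apart, and no test was run on them. Most of this came from Mir196b. Without it the miR-196 share was 12.7% in the replicate 2 library and 0.620% in the replicate 1 library, and without both miR-196a genes it was 65.9% and 5.87%.

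Seen by cluster, the Hoxa gene Mir196b held 62.8% of the counts of the 5 genes (62.5 to 63.2) in the replicate 2 library and 5.84% (4.20 to 7.87) in the replicate 1 library. The Hoxd gene Mir10b held 25.1% (24.7 to 25.4) and 84.1% (81.1 to 86.7). The Hoxc gene Mir196a-2 held 4.69% and 0.584%. The pair of Hoxb genes held 7.42% (7.23 to 7.62) and 9.49% (7.40 to 11.9), the only cluster whose intervals overlapped between the libraries. The difference was not tested, and the overlap does not show equal shares. Nearly all of the Hoxb counts were Mir10a, and Mir196a-1 was 0.256% of the pair (0.136 to 0.438) in the replicate 2 library.

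Within the families the split was closer. Mir10b made up 77.2% of miR-10 counts (76.6 to 77.7) in the replicate 2 library and 89.9% (87.3 to 92.1) in the replicate 1 library, and these intervals did not overlap. Mir196b made up 93.0% of miR-196 counts (92.8 to 93.3) and 90.9% (78.3 to 97.5), and these did. Of the counts given to 1 of the 2 miR-196a genes, Mir196a-2 held 99.6% (99.3 to 99.8) in the replicate 2 library, or 3206 of 3219, and 4 of 4 in the replicate 1 library. The arm that tells these hairpins apart is the 3′ arm, which reads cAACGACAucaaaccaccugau in Mir196a-1 and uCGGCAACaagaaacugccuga in Mir196a-2 (bases 2 to 8 in capitals). The bases beside the shared run also differ between the hairpins, so a 5′ arm read that runs past it can fit only 1 of them. Counts are per hairpin gene, so the arm behind them cannot be read from the tables.

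**Figure D4:**
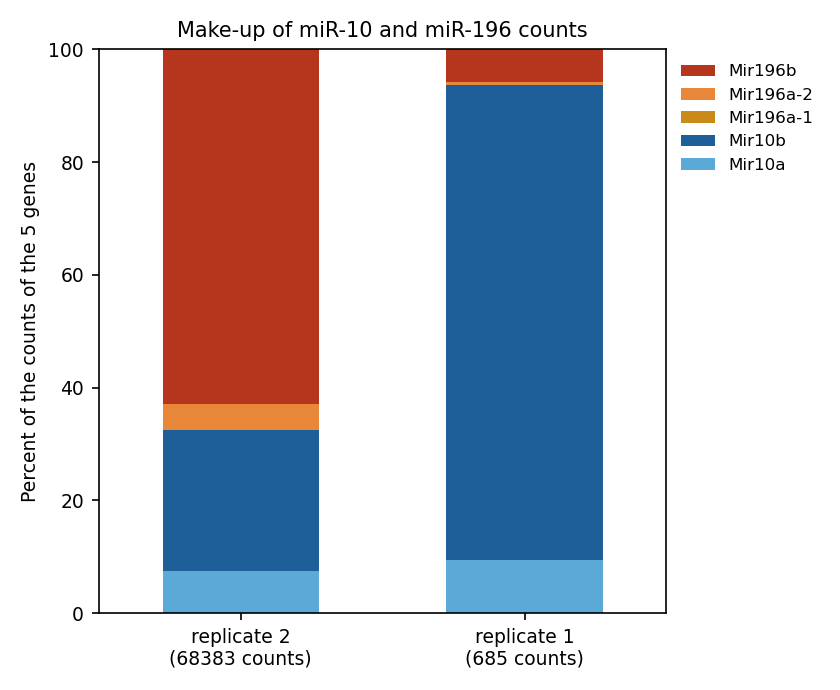
Percent of the counts of the 5 genes that fell on each gene, in the replicate 2 (68383 counts) and replicate 1 (685 counts) libraries. Mir196b fills 62.8% of the replicate 2 bar, and Mir10b fills 84.1% of the replicate 1 bar.

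No member had a read on the opposite strand. The opposite-strand column held 0 counts for each of the 5 genes in both libraries, and the counts on either strand equalled the own-strand counts gene by gene. No annotated gene overlaps a member on the opposite strand. Because Mir196b, Mir196a-2 and Mir10b lie inside Hox transcripts on their own strand, strand does not separate a read of the hairpin from a fragment of the host transcript.

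The Hox clusters hold 2 further annotated miRNA genes. Mir615 lies in an intron of Hoxc5 (chromosome 15, 103014910 to 103015001), 21.9 kb from the 3′ end of the Hoxc cluster and so nearer to it than Mir196a-2. It had 1945 counts, or 544 CPM (520 to 568), in the replicate 2 library and 9 counts, or 3.00 CPM (1.37 to 5.70), in the replicate 1 library, a 181-fold plain ratio of CPM. Its log2 ratio was 7.09 with total counts (6.57 to 8.63) and 8.28 with TMM (rank 6 of 463; adjusted p below 2.2e-308, exact binomial test). Of the counts of this Hoxc pair, Mir196a-2 held 62.2% (60.9 to 63.6) in the replicate 2 library and 4 of 13 (30.8%, 9.09 to 61.4) in the replicate 1 library, and the intervals overlapped. Gm44463, on the minus strand of the Hoxd cluster, had 0 counts in both. All 4 Hox clusters therefore had a miRNA gene that was higher in the replicate 2 library.

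The relatives of miR-10 outside the Hox clusters went the other way. Mir99a, Mir99b and Mir100 have mature arms that resemble miR-10 apart from the seed. Mir100 had 3146 CPM in the replicate 2 library and 12489 CPM in the replicate 1 library (log2 ratio -0.59 with TMM and -1.99 with total counts). Mir99a had 16385 CPM in the replicate 2 library and 65691 CPM in the replicate 1 library (log2 ratio -0.60 with TMM). Mir99b had 2787 CPM and 18137 CPM in the same order (log2 ratio -1.30 with TMM and -2.70 with total counts). All 3 passed as lower under both scalings, where 39.3% of tested genes were called lower with TMM and 63.7% with total counts.

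The genes whose pattern was most like that of the 5 were sought among other tested genes with at least 100 counts, by the distance of their log2 ratio from the members' median of 7.33, over 2 libraries. The nearest 5 were Mir493 (16283 counts in the replicate 2 library and 210 in the replicate 1 library; log2 ratio 7.39), Mir133b (375 and 1; 7.15), Mir299a (16184 and 281; 6.97), Mir214 (17140 and 347; 6.76) and Mir205 (2588 and 19; 7.91). Mir214 and Mir10b had the same count in the replicate 2 library but not in the other. With a single ratio per gene, likeness here means only a similar difference between these libraries.

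Marker lists moved between the same libraries, and their part in the Hox differences was not tested. Listed genes that are copies of the same miRNA, such as the Mir124a, Mir9, Mir1a and Mir133a genes, can lack reads placed at several sites. The summed level of a list can therefore be too low. Of 10 muscle miRNAs, 7 were tested and 7 passed as higher in the replicate 2 library (median log2 ratio 7.15), beside 40.6% of all tested genes. All but Mir206 had under 10 counts in the replicate 1 library and reached the filter only with the counts of the replicate 2 library, and Mir208b, Mir1a-2, Mir133a-1 and Mir208a, at 0 in the replicate 1 library, could enter only by being higher in the replicate 2 library. The summed level was 15.7% of counts in that library and 0.00737% in the other. Mir206 had 559242 and 212 counts, Mir499 had 1625 and 6, and Mir208b had 804 and 0, in the replicate 2 and replicate 1 libraries. In the replicate 1 library, 6 muscle genes had 0 counts, and Mir133a-2 had 0 in both.

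Of 18 miRNAs listed as neuron-enriched, and not as particular to cortex, 14 were tested. In the replicate 2 library, 13 were lower and 0 higher with TMM, beside 39.3% of all tested genes called lower (median log2 ratio -3.70). With total counts 14 were lower and 0 higher, beside 63.7%. Of the 14, 5 had under 10 counts in the replicate 2 library and reached the filter only with the counts of the replicate 1 library. The summed level was 0.132% in the replicate 2 library and 4.30% in the replicate 1 library. Mir128-1 had 2623 and 53592 counts, Mir137 had 99 and 40242, and Mir128-2 had 1379 and 16271, in the same order of libraries. Mir124a-1, Mir124a-2, Mir124a-3 and Mir9-2 had 0 counts in the replicate 2 library, against only 8, 3, 1 and 7 in the replicate 1 library. These 4 genes were not tested, and their counts, which can lack reads placed at several sites, do not give the level of miR-124 or miR-9.

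Connective tissue and cartilage miRNAs (5 genes, 4 tested) took 0.550% of counts in the replicate 2 library and 0.446% in the replicate 1 library, with 3 genes higher and 1 lower with TMM, beside 40.6% and 39.3% of all tested genes, and a median log2 ratio of 5.22. Mir214 and Mir199a-2 (155 and 0 counts in the replicate 2 and replicate 1 libraries, so tested only through the replicate 2 library) were higher, Mir140, a cartilage miRNA, was lower with 2237 and 13012, and Mir199a-1 had 0 in both. Skin and epithelial miRNAs (7 genes, all tested) took 0.475% and 0.156%, with 6 higher and 0 lower with TMM (median log2 ratio 1.31), beside the same 40.6% and 39.3%. With total counts 2 were higher and 3 lower (median -0.08), beside 26.3% and 63.7%. Mir203 had 12608 and 2780 counts and Mir205 had 2588 and 19. Mir200c had 835 and 826 counts, and its direction depended on the scaling (log2 ratio 1.16 with TMM and -0.24 with total counts).

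**Figure D5:**
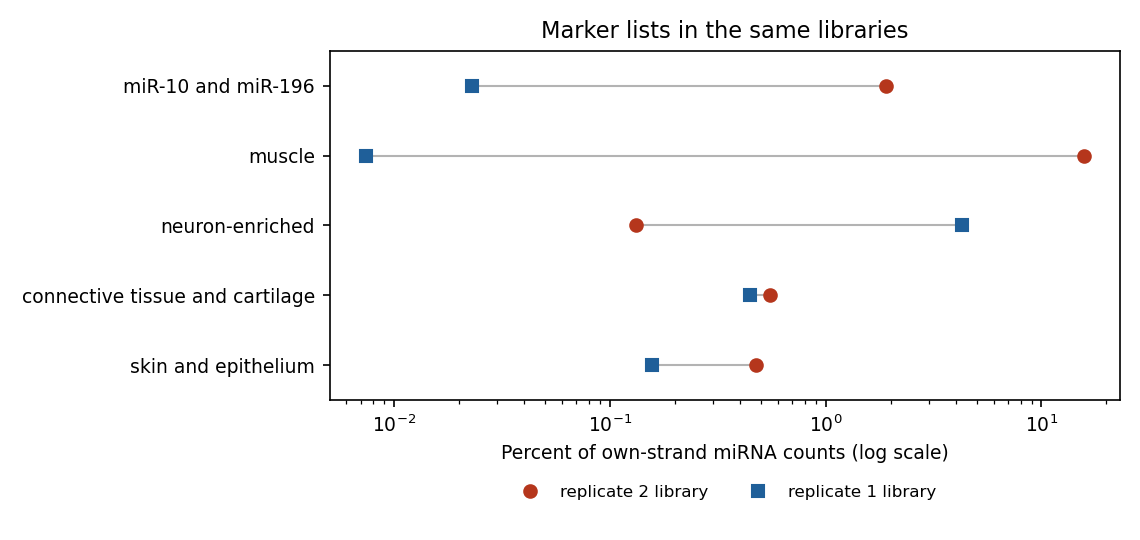
Summed percent of own-strand miRNA counts (log scale) of the 5 Hox cluster genes and 4 marker lists in the replicate 2 (circles) and replicate 1 (squares) libraries. The Hox cluster genes (1.91% and 0.0228%) and muscle miRNAs (15.7% and 0.00737%) are higher in the replicate 2 library, and neuron-enriched miRNAs (0.132% and 4.30%) are lower.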

How the data were processed

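The deposited tables give, for 1 library each, the raw count of reads per miRNA gene on either strand, the own strand and the opposite strand. Per the text files deposited beside them, the build is mm10 and the annotation GENCODE M21. Which aligner and counter were used is not given in the sources used here. Entries naming no gene entered neither totals nor tests. In the own-strand column these were reads placed at several sites (39.8% in the replicate 2 library and 46.1% in the replicate 1 library), unplaced reads (6.11% and 18.4%) and reads outside miRNA genes (1.47% and 5.55%). All 2202 identifiers matched GENCODE M21.

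CPM uses own-strand totals. TMM factors, computed on genes with at least 10 counts summed, were 0.615 for replicate 2 and 1.63 for replicate 1. The binomial test took the TMM-scaled share of the libraries as its null share. It was also run on simulated counts, with library totals in place of TMM and counting error only. Such counts follow the model of the test and cannot show how it behaves with a spread between samples. Setting the 2 libraries against each other leaves no residual degrees of freedom, so edgeR's quasi-likelihood test was not run. Hox genes were placed by their coding spans. The members, marker lists and tests were chosen with earlier results of these data known. The text names the 5 members, the other miRNA genes in the Hox clusters, Mir99a, Mir99b and Mir100, the 3 most abundant members of each marker list and those at 0, and the 5 genes of most similar ratio; Mir206 was left out of the totals as an alternative after the data were seen, as was Mir196b from the miR-196 share. Software was Python 3.11.15 with scipy 1.17.1, pandas 2.3.3, numpy 2.4.6 and matplotlib 3.10.9, and edgeR 4.0.16 and DESeq2 1.42.0 in R 4.3.3.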

Additional observations from a re-analysis of the deposited data

How the results depend on the processing

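The 5 Hox cluster genes kept their direction and passed under each of 10 other settings of the fit (unstranded counts, total counts, DESeq2 size factors, filters of at least 1 and at least 100 counts, a prior of 0.1 CPM, negative binomial tests with a coefficient of variation of 0.1 or 0.4, and totals without Mirlet7i or without Mir206), except that Mir196a-1 was not tested with the filter of 100 counts. Not all of these settings could change the calls. The prior does not enter the binomial test, and the unstranded counts of the members equal their own-strand counts, so that only the library totals and scaling changed. No setting measured a spread between samples. With the filter of 10 counts Mir196a-1 and Mir196a-2 entered only with the counts of the replicate 2 library. Mir196a-1, at 0 in the other library, could enter only by being higher in the replicate 2 library. Log2 ratios ranged from 9.71 to 11.22 for Mir196b, 8.59 to 10.63 for Mir196a-2, 5.96 to 7.49 for Mir10a, 4.63 to 6.19 for Mir10b and 2.21 to 5.91 for Mir196a-1, whose highest value came from the smaller prior. The number of genes called among all tested fell to 199 of 463 with a coefficient of variation of 0.4, and was 280 to 417 under the other settings, the lowest with the filter of 100 counts. The number of genes tested also changed, from 295 with the filter of at least 100 counts to 758 with that of at least 1. The numbers called under different filters are therefore not comparable as shares. Leaving out a library gave a member share of 0.0228 to 1.91% and a miR-196 share of 6.42 to 67.5%. No paired analysis was possible because the labels give a single group. The counts of the miR-196a genes can lack reads placed at several sites, and those of Mir196a-2 (4) and Mir196a-1 (0) in the replicate 1 library lie near the limit that a count of 0 allows.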
